A study of Homo sapiens with 12 samples.

Results

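The genes described here are the human genes with a numbered ZNF symbol whose length in the deposited annotation is 20 kb or more. There are 340 of them among 60666 human genes in the table, and 221 further ZNF genes are shorter. The rule uses the symbol and the length, no expression value, but it was set with earlier results of these data known. ZNF681 (19697 bases) and ZNF442 (19962 bases) lie just below the length threshold, and ZNF18 (20037 bases) and ZNF7 (20046 bases) just above it. Lengths of the chosen genes run from 20.04 to 961 kb, with a median of 36.8 kb. By the annotation 324 are protein coding and 16 are pseudogenes.

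The libraries hold polyadenylated RNA of the colorectal adenocarcinoma cell line DLD-1, in which SPT6 or PAF1 carried an auxin-inducible degron (AID). A degron is a protein tag that a plant F-box receptor recognises when auxin is present, after which the tagged protein is sent for degradation. Both lines, SPT6-AID OsTIR1 and PAF1-AID OsTIR1, carried that receptor constitutively, and each was sampled without auxin (0 h) and after 2 h and 6 h in 500 µM auxin, with 2 libraries in each of the 6 groups. Untagged cells given auxin were not sampled here, so an effect of auxin itself cannot be told apart from loss of the protein, and the protein levels were not measured here. The labels do not say whether a line is 1 clone or whether the 2 libraries of a group came from separate cultures, and p-values therefore rest on library-to-library spread, which may be technical.

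Most ZNF genes encode Cys2-His2 zinc finger proteins, the most numerous class of DNA-binding proteins in the human genome, in which a row of fingers reads a DNA sequence. Many carry a KRAB domain, which binds TRIM28 (KAP1) and through it the methyltransferase SETDB1 and HP1 proteins, and these KRAB proteins silence retroelements and other targets. They lie in clusters of related genes, the largest of them on chromosome 19. SPT6, a histone chaperone, moves along genes with transcribing RNA polymerase II, and PAF1 is a subunit of the PAF1 complex, which also accompanies that polymerase.

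Library totals ran from 31957953 to 115904780 counts, of which 3.94% to 6.25% fell on fly genes counted in the same table. Summed epithelial markers stood at 3547 to 6462 CPM (counts per 1e6 human counts, scaled by TMM factors) in every library, against at most 2.04 for blood, 3.33 for fibroblast and 2.41 for endothelial markers. The share of human counts on mitochondrial genes was 2.39% to 2.45% in SPT6-AID cells at 0 h and 3.85% to 3.92% at 6 h, and 1.63% to 2.16% and 2.22% to 3.16% in PAF1-AID cells. That share moved alongside the ZNF results below, and its part in them was not tested.

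Before auxin the long ZNF genes were mostly expressed at modest levels, and where a gene lay went with whether it was detected. Of the 340, 220 passed the filter on low counts and were tested, 182 of these had at least 1 CPM in all 12 libraries, 111 had reads but did not pass, and 9 had no read in any library. The highest CPM of any untested gene in any library was 0.524. On chromosome 19, which holds 157 of the 340 (46.2%), 75 were tested. Among protein-coding members that were tested, 73 of 211 (34.6%) lay on chromosome 19, against 7.38% of all protein-coding human genes, tested or not. Of 35 listed genes of the 19p12 cluster, known for primate-specific KRAB genes, only 4 were tested (ZNF14, ZNF254, ZNF431 and ZNF56), with a median over the 35 of 0.0159 CPM at 0 h. Elsewhere on chromosome 19, 71 of 122 were tested with a median of 0.657 CPM, and on other chromosomes 145 of 183 with a median of 12.6 CPM. The cluster list was made by gene name and not by coordinates, so its border with the rest of chromosome 19 is approximate. The treatment of reads with several matches is not given in the sources used here, so low counts in a cluster of related genes are less certain.

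**Figure D1:**
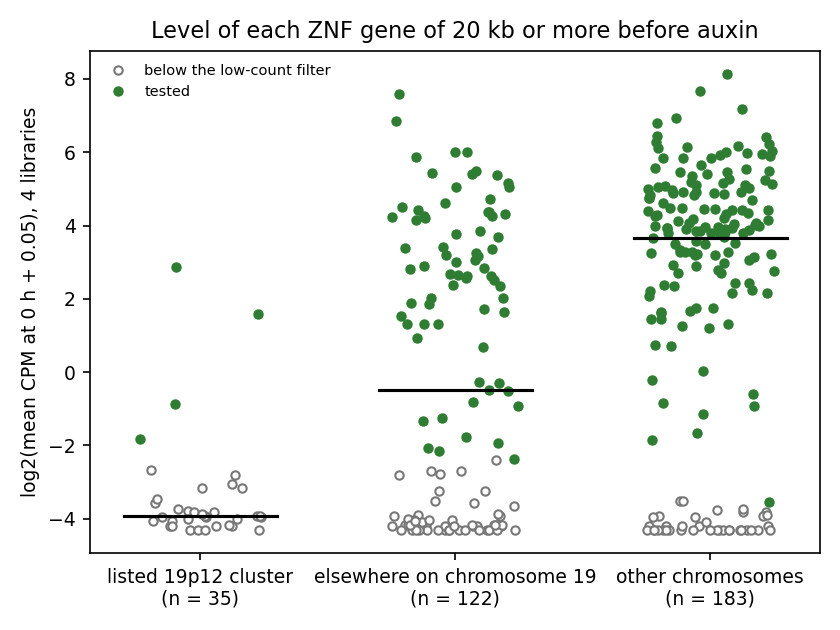
Mean CPM at 0 h over 4 libraries, as log2(CPM + 0.05), for each of the 340 genes by location; filled points passed the low-count filter and open points did not. The 35 listed 19p12 genes lie mostly at the bottom (median 0.0159 CPM), while the 183 genes on other chromosomes have a median of 12.6 CPM.

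Per length of transcript, the tested members ran from 0.00970 to 46.2 RPKM (reads per kb of transcript, scaled to library size as CPM are) at 0 h over both lines, with a median of 2.18, close to the 2.56 of all genes tested. The 5 highest were ZNF146 at 46.2 RPKM, ZNF664 at 44.7, ZNF787 at 17.3, ZNF282 at 16.7 and ZNF638 at 16.4. ZNF146 encodes a protein built almost wholly of zinc fingers, and ZNF638 is an RNA-binding protein that also takes part in silencing of retroviral DNA. For 68 of the 220 an exon overlaps an exon of another tested gene, 45 of them on the opposite strand, and related ZNF genes share sequence, so counts of such genes are less certain. Between the untreated lines, edgeR's quasi-likelihood test called 0 of 220 members at an adjusted p under 0.05, with 9 at an unadjusted p under 0.05 (all genes, 0.0289% lower and 0.00481% higher in PAF1-AID cells), 3 without the filter on low counts and 1 with DESeq2.

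Upstream sequence was at hand for 271 of the 340 genes, as the 250 bases before the first start listed in RefSeq on GRCh38.p14. The GC box (GGGCGG, either strand) occurred in 60.5% of them against 42.3% of all 27305 promoters in that table, the CCAAT box (CCAAT) in 45.4% against 33.0%, the ETS core (CCGGAAG) in 26.9% against 8.82%, and the TATA box (TATAAA) in 4.43% against 11.1%. The median GC content was 60.4% against 58.0%, with 17 against 11 CpG dinucleotides. These shares describe letters in a window and no binding. The sequences of 4 genes are shown because their time courses, given below, stand for 4 patterns: ZNF551, lower at 2 h and back at 6 h after SPT6 loss; ZNF780A, progressively lower; ZNF689, lower at every time in both lines; and ZNF789, higher at 6 h in both. Capitals mark matches to the 4 motifs on either strand, 1 in ZNF551, 0 in ZNF780A, 3 in ZNF689 and 5 in ZNF789. The windows are chr19:57681727-57681976 for ZNF551, chr19:40090944-40091193 for ZNF780A, chr16:30610434-30610683 for ZNF689 and chr7:99472640-99472889 for ZNF789, each printed 5′ to 3′ on the strand of its gene. Against the GENCODE 29 gene spans given below, the ZNF689 window lies inside the gene, since GENCODE lists a farther upstream start, the ZNF551 and ZNF789 windows run over the annotated start, and the ZNF780A window ends before it.
ZNF551: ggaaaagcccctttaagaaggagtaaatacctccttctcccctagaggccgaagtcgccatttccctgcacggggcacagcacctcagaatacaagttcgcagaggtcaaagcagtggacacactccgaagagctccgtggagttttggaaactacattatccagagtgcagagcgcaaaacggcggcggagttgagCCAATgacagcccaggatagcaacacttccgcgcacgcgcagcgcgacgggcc
ZNF780A: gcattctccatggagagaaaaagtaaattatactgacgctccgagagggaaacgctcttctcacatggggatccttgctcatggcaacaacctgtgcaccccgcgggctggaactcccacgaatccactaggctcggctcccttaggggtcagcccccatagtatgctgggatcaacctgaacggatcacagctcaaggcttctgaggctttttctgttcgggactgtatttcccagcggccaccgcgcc
ZNF689: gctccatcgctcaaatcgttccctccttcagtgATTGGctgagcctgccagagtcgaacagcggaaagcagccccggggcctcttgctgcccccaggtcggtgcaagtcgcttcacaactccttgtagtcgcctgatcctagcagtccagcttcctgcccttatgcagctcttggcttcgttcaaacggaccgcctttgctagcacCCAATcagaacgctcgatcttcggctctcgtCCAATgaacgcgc
ZNF789: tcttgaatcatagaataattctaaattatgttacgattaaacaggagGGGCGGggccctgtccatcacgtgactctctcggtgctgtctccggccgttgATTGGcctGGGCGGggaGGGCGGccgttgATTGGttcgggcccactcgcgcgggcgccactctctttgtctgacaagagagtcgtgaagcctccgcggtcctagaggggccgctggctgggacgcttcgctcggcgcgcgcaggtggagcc

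Summed over the set, the members' share of human counts was lower in every auxin-treated library than at 0 h. In SPT6-AID cells the members together took 0.550% and 0.512% of human counts at 0 h, 0.442% and 0.405% at 2 h, and 0.378% and 0.292% at 6 h. In PAF1-AID cells the shares were 0.573% and 0.515% at 0 h, 0.443% and 0.462% at 2 h, and 0.431% and 0.459% at 6 h. The treated and untreated ranges did not overlap in either line. In these bulk libraries a fall in RNA per cell and a change in which cells are present cannot be told apart, and all values are relative to the library's other human RNA. With fly totals as library sizes in place of TMM, the median of all genes itself shifted to -0.12 and -0.39 on the log2 scale at 2 h and 6 h of SPT6 loss and to -0.22 and -0.37 for PAF1. Relative to that median the ZNF members lay at -0.44 and -0.67 for SPT6 and -0.29 and -0.23 for PAF1, against -0.43, -0.70, -0.29 and -0.23 with TMM scaling.

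**Figure D2:**
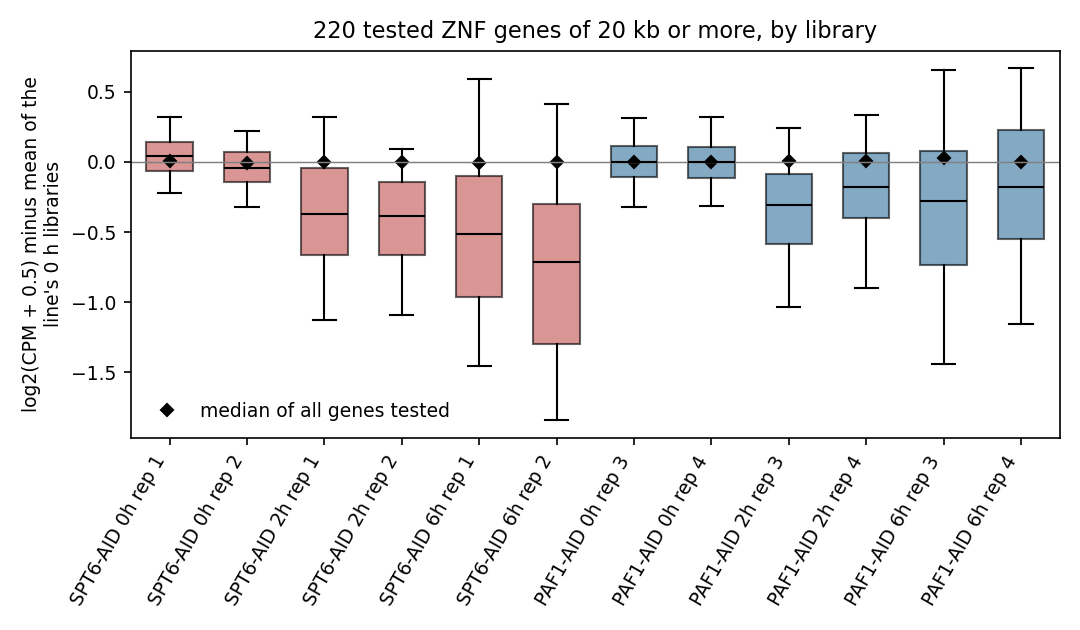
Boxes show log2(CPM + 0.5) of the 220 tested ZNF genes in each of the 12 libraries minus the mean of the same line's 0 h libraries (box, quartiles; whiskers, 5th to 95th percentile; line, median), and diamonds the median of all genes tested. The box medians fall from near 0 at 0 h to -0.51 and -0.72 in the SPT6-AID libraries at 6 h, while the diamonds stay near 0.

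After 2 h without SPT6, long ZNF genes were among the few genes already called lower. edgeR's quasi-likelihood test with Benjamini-Hochberg adjustment over all 20791 genes tested called 12 of the 220 lower and 0 higher (adjusted p under 0.05), which is 5.45% of members, where 0.462% of all genes were called lower and 0.0866% higher. The members' median log2 fold change was -0.42 and that of all genes 0.01, and 193 of 220 members were below 0. The early fall was not particular to long genes. Of the 151 tested ZNF genes under 20 kb, 11 (7.28%) were called lower and 0 higher, with a median of -0.57. ZNF551 had the largest fall. This KRAB zinc finger gene (ENSG00000204519; GENCODE 29, GRCh38, chromosome 19, 57681969 to 57717301, plus strand) had 19.3 and 20.1 CPM at 0 h and 5.51 and 5.94 at 2 h. Both treated values lay far below the untreated ones, so the groups did not overlap. The log2 fold change was -1.78 ± 0.23 (SE), with an adjusted p of 0.00955.

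Among the others lower at 2 h of SPT6 loss, ZNF92, a KRAB gene on chromosome 7, had 27.8 and 27.1 CPM at 0 h and 12.3 in both libraries at 2 h, a log2 fold change of -1.16 ± 0.13 (adjusted p = 0.00873). ZNF627, on chromosome 19, went from 13.3 and 15.8 CPM to 4.67 and 5.24 (-1.55 ± 0.19, adjusted p = 0.00955). ZNF484, on chromosome 9, went from 15.2 and 12.4 CPM to 4.56 and 4.63 (-1.58 ± 0.26, adjusted p = 0.0321). In all 3 genes the groups stood apart without overlap. ZNF184 (-1.30), ZNF267 (-1.06), ZNF343 (-1.05) and ZNF16 (-1.05) completed the 8 largest falls among called members with a mean log2 CPM of 0 or more, and ZNF225, ZNF227 and ZNF689 also passed. These calls rest on few libraries: none held without any one of the SPT6-AID 0 h or 2 h libraries. Fewer passed without any one PAF1-AID library. Each refit leaves 1 library in a group and less power. Over all leave-outs the members' median log2 fold change stayed between -0.45 and -0.40. DESeq2 called 35 lower, the SPT6-AID libraries fitted alone gave 0 with 70 at an unadjusted p under 0.05, and with total counts or fly totals as library sizes 6 and 3 were called.

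By 6 h without SPT6 the fall reached many more of the long ZNF genes. Of the 220, 98 were called lower (44.5%) and 6 higher, where 16.4% of all genes were called lower and 8.76% higher, and the median log2 fold change was -0.66 against 0.04 for all genes. The largest falls among called members with a mean log2 CPM of 0 or more were those of ZNF624 (-2.27), ZNF248 (-2.27), ZNF780A (-2.11), ZNF782 (-2.08), ZNF280D (-2.02), ZNF19 (-1.99), ZNF322 (-1.97) and ZNF341 (-1.96). ZNF624 and ZNF19 had at most 3.43 CPM in any SPT6-AID library and lost their calls when 1 SPT6-AID library was left out (adjusted p up to 0.0853 and 0.104, both without SPT6-AID 6 h replicate 2). The calls of the other 6 held in every leave-out. ZNF341, which encodes an activator of STAT3 transcription, shares exon sequence with its antisense gene.

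ZNF780A shows the depth of the change (ENSG00000197782; chromosome 19, 40069152 to 40090938, minus strand). It had 74.96 and 91.9 CPM at 0 h, 44.9 and 60.2 at 2 h, then 20.1 and 18.4 at 6 h without SPT6. Each later pair lay below the earlier one with no overlap, and the change at 6 h carried a standard error of 0.17 and an adjusted p of 9.75e-05. ZNF146, the gene with the highest level per length, had 180 and 206 CPM at 0 h, 152 and 178 at 2 h and 66.1 and 53.4 at 6 h (-1.69 ± 0.14, adjusted p = 9.75e-05). ZNF664, nearly as high at 0 h, had 273 and 281 CPM at 0 h and 241 and 257 at 6 h, and its log2 fold change of -0.16 ± 0.11 did not pass (adjusted p = 0.329). Without SPT6-AID 6 h replicate 2 the number of members called was 67 in place of 104.

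The 6 members called higher at 6 h of SPT6 loss were ZNF846, ZNF789, ZNF394, ZNF705A, ZNF541 and ZNF550, of which the last 3 were named after their values were seen and had at most 1.04 CPM in any library. ZNF705A, with 0.0536 and 0.0187 CPM at 0 h and 0.348 and 0.244 at 6 h, reached the filter level of 0.214 CPM in no 0 h or 2 h library and was tested only because of 6 h libraries, so its call carries no weight. ZNF846 had 2.25 and 2.63 CPM at 0 h and 4.89 and 5.80 at 6 h (1.13 ± 0.24, adjusted p = 0.00659; 0.0610 without SPT6-AID 0 h replicate 1). ZNF789 (ENSG00000198556; chromosome 7, 99472841 to 99503650, plus strand) had 7.05 and 7.19 CPM at 0 h, 9.36 and 7.63 at 2 h and 15.1 and 15.4 at 6 h. Only the 6 h libraries stood clear of the rest, with a log2 fold change at 6 h of 1.10 ± 0.18 (adjusted p = 0.00149). ZNF394, which lies on the other strand of the same stretch of chromosome 7, had 22.2 and 22.9 CPM at 0 h, 16.6 and 14.9 at 2 h and 41.5 and 45.4 at 6 h (0.95 ± 0.14, adjusted p = 0.000890). Exons of ZNF789 and ZNF394 overlap and the strand setting of the counting is not given in the sources used here, so a rise in 1 of them could be counted for both.

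Between 2 h and 6 h of SPT6 loss members moved in both directions, the share called higher being near that of all genes. Of the 220, 42 (19.1%) were lower and 14 (6.36%) higher at 6 h than at 2 h. Over all genes 10.4% were called lower and 5.32% higher. The members' median log2 fold change was -0.26. With fly totals as library sizes the counts were 57 lower and 3 higher. The largest falls after 2 h among called members with a mean log2 CPM of 0 or more were those of ZNF341 (-1.74), ZNF248 (-1.69), ZNF518A (-1.66), ZNF107 (-1.55) and ZNF839 (-1.49). ZNF518A had 110 and 114 CPM at 0 h, 119 and 115.6 at 2 h and 42.1 and 32.1 at 6 h, so that only the 6 h libraries were low. The largest rises by the same rule were those of ZNF551 (1.72), ZNF394 (1.47), ZNF14 (1.09), ZNF654 (1.01) and ZNF791 (0.99). ZNF551, which had the largest fall at 2 h, stood at 15.8 and 21.9 CPM at 6 h, a range that overlaps its 0 h values, and its log2 fold change from 0 h was -0.06 ± 0.22 (adjusted p = 0.858). The number of calls fell from 56 to 19 without SPT6-AID 2 h replicate 2, to 23 without 6 h replicate 2 and to 33 without 2 h replicate 1. Of the genes just named, ZNF248 and ZNF107 lost their calls without 6 h replicate 2 (adjusted p = 0.0504 and 0.0727), and ZNF14, ZNF654 and ZNF791 without 2 h replicate 2 (0.220, 0.118 and 0.0695).

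**Figure D3:**
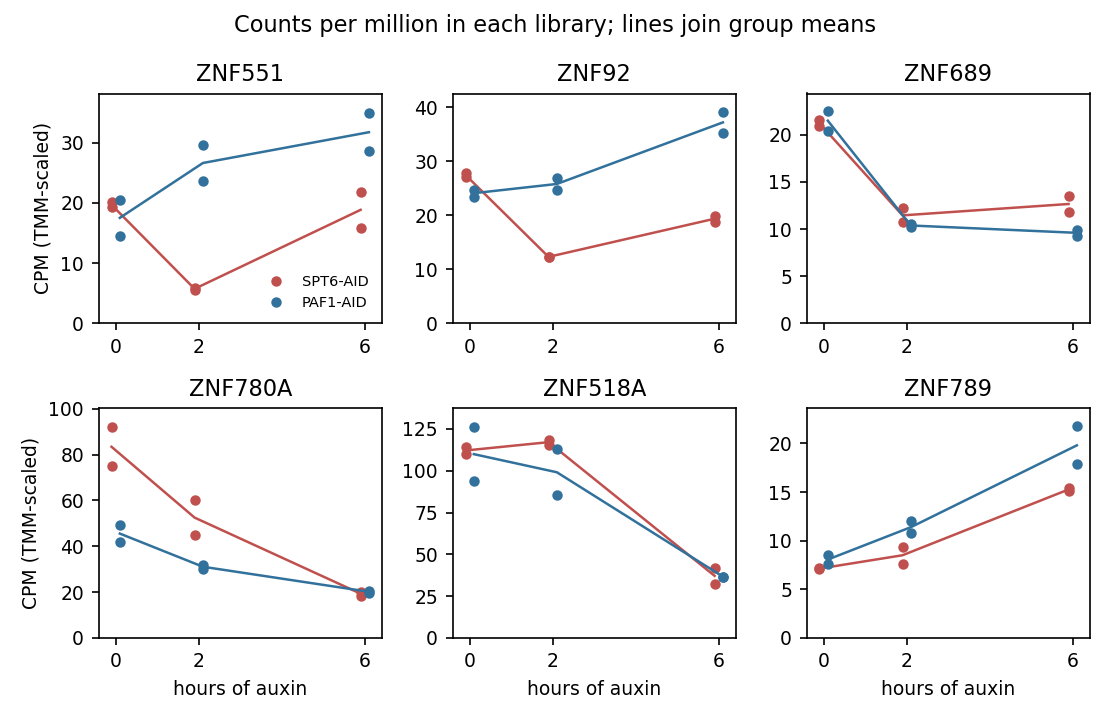
CPM of 6 ZNF genes in each library (points) against hours of auxin, with lines joining the 2-library means of SPT6-AID (red) and PAF1-AID (blue) cells. ZNF551 and ZNF92 dip at 2 h in SPT6-AID cells alone, ZNF689 falls by 2 h in both lines, ZNF780A falls stepwise, ZNF518A is low at 6 h only, and ZNF789 is highest at 6 h.

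After 2 h without PAF1, 1 of 220 members, ZNF689, was called lower and 0 higher, where 0.0818% of all genes were called lower and 0.0673% higher, while 50 members were lower and 2 higher at an unadjusted p under 0.05 and the members' median was -0.28 against 0.01. ZNF689, a KRAB gene on chromosome 16 (30602558 to 30624012, minus strand), had 20.4 and 22.6 CPM at 0 h, 10.6 and 10.2 at 2 h and 9.31 and 9.88 at 6 h in PAF1-AID cells. It had 21.6 and 20.9, 10.7 and 12.2, and 11.8 and 13.5 CPM at the same times in SPT6-AID cells. In both lines every treated library lay well below the untreated ones. The log2 fold changes were -1.05 ± 0.15 and -1.16 ± 0.15 for PAF1 (adjusted p = 0.0363 and 0.00230) and -0.89 ± 0.15 and -0.75 ± 0.15 for SPT6 (adjusted p = 0.0378 and 0.00523). Without PAF1-AID 2 h replicate 3 its 2 h call in that line was lost (adjusted p = 0.390), and without SPT6-AID 2 h replicate 1 so was the 2 h call for SPT6 (0.371). DESeq2 called 13 members at 2 h of PAF1 loss, all lower. The edgeR fit did not pair same-numbered libraries, though their deviations correlated across members at 0.76 to 0.81 in PAF1-AID cells. What the number stands for is not given in the labels. With a replicate block more members were called here and in the other comparisons within and between the responses, as given in the last section.

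At 6 h of PAF1 loss 42 of the 220 were called lower (19.1%) and 8 higher, where 6.7% of all genes were called lower and 4.2% higher, with a median of -0.21 against 0.02. With fly totals as library sizes 64 were lower and 1 higher. The largest falls among called members with a mean log2 CPM of 0 or more were those of ZNF624 (-2.78), ZNF19 (-2.26), ZNF616 (-2.14), ZNF248 (-2.09), ZNF397 (-1.70), ZNF518A (-1.59), ZNF438 (-1.56) and ZNF720 (-1.50). Without PAF1-AID 6 h replicate 3 the calls of ZNF624, ZNF19, ZNF616, ZNF397 and ZNF438 were lost, at adjusted p = 0.0746, 0.167, 0.0546, 0.136 and 0.0969. ZNF518A had 126 and 93.6 CPM at 0 h, 113 and 85.5 at 2 h and 36.7 and 36.5 at 6 h, so that only the last pair was low (log2 SE 0.19, adjusted p = 0.00185). ZNF780A went from 49.1 and 42.0 CPM through 30.3 and 31.8 to 19.7 and 20.5, lower at each time without overlap (-1.18 ± 0.17 at 6 h, adjusted p = 0.00301). ZNF146 fell from 192 and 187 CPM to 81.7 and 83.6 (-1.20 ± 0.14, adjusted p = 0.00176). From 2 h to 6 h of PAF1 loss only 2 members were called, both lower, ZNF518A (-1.44) and ZNF146 (-0.82), where 0.587% of all genes were called lower and 0.289% higher; both calls were lost without PAF1-AID 6 h replicate 3 (adjusted p = 0.340 for each).

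The 8 members called higher at 6 h of PAF1 loss were ZNF789 (1.30), ZNF425 (1.16), ZNF654 (0.98), ZNF551 (0.86), ZNF451 (0.76), ZNF707 (0.73), ZNF92 (0.63) and ZNF394 (0.55). ZNF789 had 8.49 and 7.62 CPM at 0 h, 10.8 and 11.98 at 2 h and 21.8 and 17.8 at 6 h (± 0.18, adjusted p = 0.00261). ZNF551 had 14.5 and 20.5 CPM at 0 h, 23.7 and 29.6 at 2 h and 28.6 and 34.9 at 6 h (± 0.22, adjusted p = 0.0325). Both genes were above their 0 h range in every PAF1-AID library treated with auxin. ZNF654 shares exon sequence with CGGBP1 and ZNF707 with CCDC166. Fewer than the 50 members passed at 6 h of PAF1 loss without any 1 of the PAF1-AID 0 h and 6 h libraries. Such a refit leaves 1 library in a group and less power, so it cannot tell whether a single library carries the result. The members' median log2 fold change stayed between -0.33 and -0.17 over all leave-outs. Of the 8 higher calls ZNF789 alone held in every leave-out; for the others the highest adjusted p was between 0.0767 (ZNF425, without 0 h replicate 4) and 0.199 (ZNF551, without 0 h replicate 3).

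The 2 lines, which share no library, could be set side by side at 6 h. Of the 98 members lower after SPT6 loss and the 42 lower after PAF1 loss, 38 were the same genes, 38.8% of the first list and 90.5% of the second; over all genes tested the 1038 shared genes were 30.4% and 74.5%. ZNF394 and ZNF789 were higher in both. Across the 220 members the log2 fold changes of the lines had a Pearson r of 0.61 and a Spearman rho of 0.56 (0.63 and 0.54 across all genes). ZNF92 and ZNF451 moved in opposite directions. ZNF92 had 18.8 and 19.9 CPM at 6 h of SPT6 loss, below its 0 h values of 27.8 and 27.1 (-0.50 ± 0.13, adjusted p = 0.0167), and 39.2 and 35.2 CPM at 6 h of PAF1 loss, above its 0 h values of 23.4 and 24.7 (0.63 ± 0.13, adjusted p = 0.0136). ZNF451, a SUMO ligase, went from 65.7 and 78.5 to 49.9 and 52.1 CPM in SPT6-AID cells (-0.50 ± 0.16, adjusted p = 0.0386) and from 75.7 and 58.2 to 119 and 108 CPM in PAF1-AID cells (0.76 ± 0.16, adjusted p = 0.0129). The difference of the 2 responses was -1.13 ± 0.18 for ZNF92 (adjusted p = 0.0148) and -1.26 ± 0.22 for ZNF451 (adjusted p = 0.0187), and each was lost without PAF1-AID 6 h replicate 4 (0.0711 and 0.0760). Within the lines, the ZNF451 fall was lost without SPT6-AID 0 h replicate 2 (0.204), the ZNF92 fall without SPT6-AID 0 h replicate 1 (0.0804), and both rises without PAF1-AID 6 h replicate 3 (0.115 and 0.124).

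**Figure D4:**
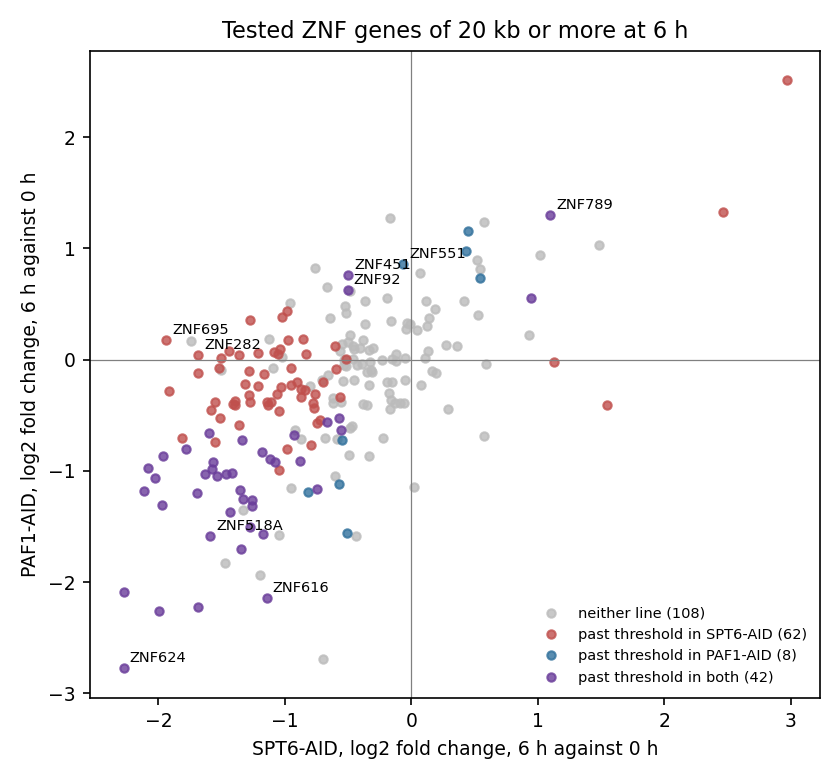
Log2 fold change at 6 h against 0 h of each of the 220 tested ZNF genes in SPT6-AID (x) and PAF1-AID cells (y), coloured by which line's change passed the threshold. Most points lie left of 0, and the 38 genes lower in both occupy the lower left, while ZNF92 and ZNF451 lie at upper left.

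The test of the difference between the responses called 14 members at 6 h, all with the lower value after SPT6 loss (6.36% of members, where 3.12% of all genes were called lower and 0.62% higher), with a median difference of -0.38 over the 220. The 5 largest among called members with a mean log2 CPM of 0 or more were ZNF695 (-2.11), ZNF282 (-1.72), ZNF484 (-1.63), ZNF263 (-1.63) and ZNF407 (-1.52). ZNF695 had 11.3 and 14.3 CPM at 0 h and 3.93 and 2.72 at 6 h in SPT6-AID cells, and 9.38 and 10.7 and then 10.6 and 12.03 in PAF1-AID cells. ZNF282 had 70.6 and 57.8 CPM at 0 h and 24.7 and 15.1 at 6 h in SPT6-AID cells, and 47.7 and 75.03 and then 59.7 and 66.3 in PAF1-AID cells. In both genes the SPT6-AID groups stood apart and the PAF1-AID groups overlapped. ZNF695 shares same-strand exon sequence with another tested gene, ZNF670-ZNF695, and ZNF263 with LINC00921, so their counts are less certain. ZNF407, at 468 kb the longest member tested, went from 22.1 and 24.7 CPM to 10.8 and 6.25 after SPT6 loss, and from 16.0 and 18.8 to 16.7 and 20.1 after PAF1 loss. This count depends on the libraries fitted and on scaling. It rose or fell with the library left out, which leaves 1 library in a group and less power. The median difference stayed between -0.55 and -0.25 over all leave-outs. With fly totals as library sizes 0 members passed (52 at an unadjusted p under 0.05). At 2 h the same test called 1 member, ZNF551 (-2.39 ± 0.31, adjusted p = 0.0443; 0.324 without SPT6-AID 2 h replicate 1), where 0.0192% of all genes were called lower and 0.0144% higher.

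Members with known roles outside KRAB repression were also among those that fell after SPT6 loss. Of 22 listed genes acting in transcription complexes or chromatin, 19 were tested, and 12 were lower and 0 higher at 6 h of SPT6 loss against 2 lower and 1 higher for PAF1. Those are 63.2% and 10.5% lower, beside 16.4% and 6.7% of all genes and 44.5% and 19.1% of all tested members. ZNF143, an activator that binds promoters of protein-coding and small nuclear RNA genes, had 29.7 and 31.8 CPM at 0 h and 13.3 and 12.4 at 6 h of SPT6 loss, and 28.3 and 35.3 and then 12.2 and 14.4 for PAF1; its log2 fold change was -1.26 in both lines (adjusted p = 0.000538 and 0.00230). ZNF609, a partner of the Integrator complex, had 76.7 and 79.7 CPM at 0 h and 42.8 and 26.9 at 6 h of SPT6 loss (-1.16 ± 0.19, adjusted p = 0.00141), and 71.5 and 70.1 and then 67.1 and 62.5 for PAF1 (-0.13 ± 0.18, adjusted p = 0.724). ZNF143 thus fell in both lines, and ZNF609 passed in SPT6-AID cells alone, with a difference of responses of -1.03 ± 0.26 that did not pass (adjusted p = 0.0564). Of 10 listed genes with roles in RNA binding, mitosis or the cytoplasm, 8 were tested, and 5 were lower at 6 h of SPT6 loss and 1 at 6 h of PAF1 loss, to be read beside the same all-gene shares. ZNF207 (BuGZ), which works at the mitotic spindle, had 142 CPM in both 0 h libraries and 91.8 and 96.5 at 6 h of SPT6 loss (-0.59 ± 0.12, adjusted p = 0.00468). ZNF638 was lower in both lines, by -0.66 ± 0.12 and -0.56 ± 0.12 on the log2 scale, the second lost without PAF1-AID 6 h replicate 3 (adjusted p = 0.119).

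Genes of the machinery that KRAB proteins recruit behaved unevenly. Of 26 corepressor and heterochromatin genes, all tested, 12 were lower and 1 higher at 6 h of SPT6 loss, and 5 were lower and 2 higher at 6 h of PAF1 loss. Lower genes were thus 46.2% and 19.2% of the list, beside 16.4% and 6.7% of all genes, and higher ones 3.85% and 7.69%, beside 8.76% and 4.2%. TRIM28, the corepressor bound by the KRAB domain, had 708 and 712 CPM at 0 h and 761 and 890 at 6 h of SPT6 loss (0.22, adjusted p = 0.376), and 517 and 717 and then 930 and 992 for PAF1 (0.64, adjusted p = 0.0340). SETDB1, the histone H3 lysine 9 methyltransferase of that complex, had 45.2 and 41.7 CPM at 0 h and 13.5 and 9.85 at 6 h of SPT6 loss, and 39.7 and 39.9 and then 14.6 and 16.1 for PAF1. SETDB1 was thus low in all 6 h libraries (-1.89 and -1.38), while no TRIM28 library at 6 h was below its 0 h range. SUV39H1 (-1.63), EHMT1 (-1.40) and SUV39H2 (-1.21), other lysine 9 methyltransferase genes, fell after SPT6 loss. MPHOSPH8, a subunit of the HUSH silencing complex, was the 1 gene of the list called higher at 6 h of SPT6 loss (1.28). Other HUSH subunits did not rise with it: by edgeR's test TASOR fell (-0.66, adjusted p = 0.00690) and PPHLN1 did not pass (-0.33, adjusted p = 0.126).

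Within the set, the change was spread over all lengths. At 6 h of SPT6 loss 40 of 83 tested genes of 20 to 30 kb, 30 of 81 of 30 to 60 kb and 28 of 56 of 60 kb or more were lower, with medians of -0.70, -0.52 and -0.95; these are 48.2%, 37.0% and 50% of each class, beside 16.4% of all genes. At 2 h the 3 classes had 7, 5 and 0 genes called lower, with medians of -0.53, -0.31 and -0.42. Those are 8.43%, 6.17% and 0% of each class, beside 0.462% of all genes. Across the 220 the Spearman rho of length with log2 fold change was 0.08 at 2 h and -0.04 at 6 h, where across all genes tested it was -0.15 and -0.23. Members were chosen to be 20 kb or more and all genes were not, so the 2 sets of rho cover unlike length ranges. Their difference was not tested. Of the 151 tested ZNF genes under 20 kb, 66 (43.7%) were lower and 10 (6.62%) higher at 6 h of SPT6 loss, with a median of -0.55. At 6 h of PAF1 loss 33 (21.9%) were lower and 11 (7.28%) higher, with a median of -0.26. Over all genes 16.4% were lower and 8.76% higher for SPT6, and 6.7% and 4.2% for PAF1. From 2 h to 6 h of SPT6 loss 24 (15.9%) of the shorter genes were lower and 20 (13.2%) higher, with a median of 0.00. For the longer ones the counts were 42 (19.1%) and 14 (6.36%), with a median of -0.26. Over all genes 10.4% were lower and 5.32% higher. Differences between the short and long genes were not tested. By location, 28 of 75 tested members on chromosome 19 and 70 of 145 elsewhere were lower at 6 h of SPT6 loss (37.3% and 48.3%). Of the 98 lower members, 82 had an upstream sequence, and the GC box occurred in 67.1% and the TATA box in 0 of them, against 59.1% and 6.45% in 93 tested members that were not called.

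**Figure D5:**
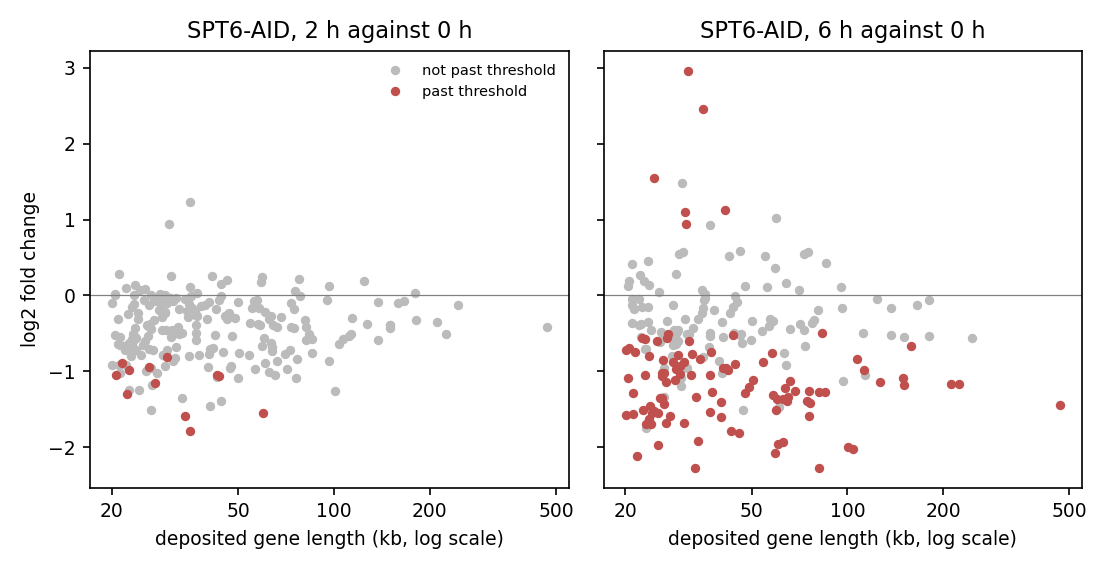
Log2 fold change of the 220 tested ZNF genes in SPT6-AID cells at 2 h (left) and 6 h (right) against gene length in kb (log axis), with genes past the threshold in red. The fall spreads over all lengths, and the 28 lower genes of 60 kb or more at 6 h lie among shorter ones of like change.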

How the data were processed

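Gene counts are the whole-number counts of reads per gene that the authors deposited in 1 table for all 12 libraries. Per the submitters' processing notes, the tools were cutadapt 1.14, STAR 2.7.5 and featureCounts 2.0.0 with the builds GRCh38 and BDGP6; the annotation release, strand setting and treatment of reads with several matches are not given in the sources used here. Per the labels, groups are the tagged line and the hours of auxin. Human genes (60666) were kept apart from 17807 fly genes, filtered with filterByExpr, scaled by TMM and fitted with edgeR 4.0.16 (glmQLFit, glmQLFTest; R 4.3.3) over all 12 libraries and 6 groups, giving 6 residual degrees of freedom. In each of 9 comparisons the Benjamini-Hochberg adjustment ran over the 20791 tested genes, with a threshold of 0.05. CPM are TMM-scaled; RPKM divide by the deposited transcript length. Coordinates and exon overlaps come from GENCODE 29, in which all 340 members were found and 179 have the deposited length. The code was tested on simulated data.

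Named genes are, by rule, the largest changes past the threshold whose mean log2 CPM was 0 or more (8 per direction against 0 h, 5 otherwise), the 5 highest per length, members of role lists, members called in opposite directions or in most comparisons, and the genes next to the length threshold. The members and lists were chosen with earlier results of these data known. Alternatives were other scalings, filters, tests (DESeq2 1.42.0, limma 3.58.1), each line alone, a replicate block and leaving out each library in turn. A planned split of members by KRAB domain was not made, because protein sequences were not used here.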

Additional observations from a re-analysis of the deposited data

Results flagged for a closer look

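The 6 members named here are the largest of those called by edgeR's test of the difference between the lines' responses. That difference is the SPT6 response minus the PAF1 response, on the log2 scale, Benjamini-Hochberg adjusted. At 2 h this was ZNF551 (-2.39, adjusted p = 0.0443), which was below its 0 h libraries in both SPT6-AID libraries and above them in both PAF1-AID libraries. At 6 h these were ZNF695 (-2.11, adjusted p = 0.0135), ZNF282 (-1.72, adjusted p = 0.0323), ZNF484 (-1.63, adjusted p = 0.0371), ZNF263 (-1.63, adjusted p = 0.0159) and ZNF407 (-1.52, adjusted p = 0.0354). All 6 of these calls were lost when 1 library was left out.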

How the results depend on the processing

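No named call reversed under any alternative. Of 132 calls of named members refitted under the alternatives, 2243 of 2763 refits kept the call and 520 lost the threshold; 395 of the 1584 leave-one-out refits and 36 of the 132 refits with fly totals lost it. Members called, by setting, with the main number in brackets, moved as follows. With total counts as library sizes, SPT6 2 h gave 6 (12) and the 6 h difference 4 (14). With fly totals, SPT6 2 h gave 3, PAF1 2 h 0 (1), PAF1 6 h against 2 h 0 (2) and the 6 h difference 0. Without a filter on low counts, SPT6 2 h gave 29, PAF1 2 h 13, PAF1 6 h against 2 h 6, the 2 h difference 2 (1), the 6 h difference 33 and the untreated lines 3 (0). With a mean of at least 1 CPM, the 2 h difference gave 2 and the 6 h difference 6. With DESeq2, SPT6 2 h gave 35, PAF1 2 h 13, PAF1 6 h against 2 h 13, the 2 h difference 3, the 6 h difference 32 and the untreated lines 1. With limma-voom the 2 h difference gave 0. With 1 line fitted alone, SPT6 2 h gave 0, PAF1 2 h 0 and SPT6 6 h against 2 h 34 (56). Leaving out each library in turn gave 0 to 15 for SPT6 2 h, 67 to 104 for SPT6 6 h, 0 to 1 for PAF1 2 h, 9 to 53 for PAF1 6 h, 19 to 56 for SPT6 6 h against 2 h, 0 to 2 for PAF1 6 h against 2 h, 0 to 1 and 0 to 30 for the differences at 2 h and 6 h, and 0 for the untreated lines; the lone library of a reduced group was assumed to vary like the other groups. The labels do not say what the replicate number stands for, yet deviations of same-numbered libraries correlated across genes at 0.57 to 0.66 in SPT6-AID and 0.49 to 0.53 in PAF1-AID cells. Across the tested members alone the correlations were higher, at 0.65 to 0.82 in SPT6-AID and 0.76 to 0.81 in PAF1-AID cells. With a replicate block the calls rose to 99 and 164 for SPT6 at 2 h and 6 h, 63 and 115 for PAF1, 131 and 56 for 6 h against 2 h in SPT6-AID and PAF1-AID cells, and 16 and 92 for the differences; all 132 named calls were kept. No blocked comparison of the untreated lines was possible because they share no replicate number. With 2 libraries a group, a call that did not pass shows no equality.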
